A study of Mus musculus with 6 samples.

Results

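The collagen chain genes were examined in the mouse cardiac outflow tract (OFT) at E13.5. The OFT is the part of the embryonic heart from which the semilunar valves and the roots of the great arteries come. A gene was taken as a member when it had a symbol made of Col, a number, the letter a and a number, and more than 5 reads summed over the libraries. This rule uses no difference between groups. It found 43 genes among the 28157 genes tested, and *Col10a1* was not analysed here. The members were sorted by textbook class into 11 fibrillar chains, 8 basement membrane chains and 24 others, the last made up of 9 FACIT (fibril-associated) chains, 6 beaded filament chains of type VI, 4 transmembrane chains, 2 short chain network genes and 3 further genes (*Col7a1*, *Col26a1* and *Col28a1*).

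RNA-Seq had been done on 6 libraries, each made from 3 pooled OFTs, 18 OFTs in all. Of these, 3 libraries were labelled *Notch1*+/-; *Nos3*-/-, that is, heterozygous for the receptor *Notch1* and null for the endothelial nitric oxide synthase *Nos3*, and 3 were labelled wildtype and came from littermates. Total counts per library lay between 34729103 and 44387490. *Notch1* was measured at 74.3, 88.2 and 83.6 CPM (counts scaled to the size of the library) in the 3 wildtype libraries and at 155, 161 and 139 CPM in the 3 mutant libraries, so that the transcript of the heterozygous gene was higher under the mutant label (log2 fold change 0.89, edgeR quasi-likelihood test, adjusted p = 0.0313). *Nos3* was measured at 31.8, 47.2 and 48.1 CPM and 22.1, 22 and 20.4 CPM, lower under the mutant label (log2 fold change −0.98, adjusted p = 0.128 from the same edgeR fit). Reads counted over a whole gene do not tell its alleles apart, so these values do not settle the genotype, which was not tested. For this reason "mutant" and "wildtype" stand below for the library labelled so. The library numbers of wildtype replicates 2 and 3 are swapped between title and description, and which is which is uncertain; here the numbers of the titles are used. Defining markers of the myocardium, mesenchyme, vascular smooth muscle, endothelium and epicardium were present, each above 3 counts in at least 1 library.

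Collagens are trimers of chains that wind into a triple helix, and the helix needs a glycine at regular steps along each chain, once in each triplet of residues. Fibrillar collagens carry long unbroken helices and pack into the fibrils that give tissue its tensile strength. FACIT collagens sit on the surface of those fibrils, type VI collagen forms beaded filaments between cells and fibrils, and type IV collagen builds the sheet-like network of basement membranes under endothelium and around muscle cells. In the OFT the cushions hold loose mesenchyme in a collagen-containing matrix, from which the layered matrix of the semilunar valves and the arterial wall later forms.

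The class difference can be illustrated with single exons chosen to show it. The 54-base exons were taken from those with a glycine codon in every triplet, and the type IV exons from those with a break. For 4 fibrillar chains and a FACIT chain an exon of 54 bases from the middle of the helix is shown. An exon of each of the most abundant type IV chains follows, so that unbroken and interrupted stretches of glycine triplets stand side by side. An exon does not show the whole helix, as *Col9a2* had 6 separate runs of 5 triplets or more. Sequences are from GRCm38 (mm10), 5′ to 3′ on the strand of the gene, in reading frame, with glycine codons in capitals.
Col1a1, exon 26, chr11:94944355-94944408, plus strand: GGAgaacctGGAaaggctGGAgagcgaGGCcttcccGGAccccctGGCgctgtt
Col1a2, exon 27, chr6:4524117-4524170, plus strand: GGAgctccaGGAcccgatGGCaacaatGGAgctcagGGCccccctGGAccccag
Col3a1, exon 26, chr1:45334761-45334814, plus strand: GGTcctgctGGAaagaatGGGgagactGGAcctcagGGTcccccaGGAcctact
Col5a2, exon 29, chr1:45403116-45403169, minus strand: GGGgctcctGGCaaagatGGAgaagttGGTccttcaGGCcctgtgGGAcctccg
Col9a2, exon 16, chr4:121046229-121046282, plus strand: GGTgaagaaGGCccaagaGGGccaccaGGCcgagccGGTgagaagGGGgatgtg
Col4a1, exon 9, chr8:11244486-11244569, minus strand: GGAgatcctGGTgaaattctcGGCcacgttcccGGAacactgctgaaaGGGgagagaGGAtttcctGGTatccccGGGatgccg
Col4a2, exon 8, chr8:11402163-11402234, plus strand: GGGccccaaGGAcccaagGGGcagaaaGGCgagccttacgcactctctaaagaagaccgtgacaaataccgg

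In the 5 exons of 54 bases, glycine codons are 6 of the 18 codons and keep the same spacing throughout, as the choice of exons required. The breaks in the type IV exons were likewise required by the choice. The *Col4a1* exon has 84 bases and 8 glycine codons, and the distance between them changes within the exon. In the 72 bases of the *Col4a2* exon, 4 glycine codons at the start are followed by a stretch with none. Over the coding exons that lie between the first and the last, 305 of 627 (48.6%) in the fibrillar genes were exactly 54 bases long, against 16 of 361 (4.43%) in the basement membrane genes and 109 of 414 (26.3%) in the FACIT genes. The longest unbroken run of glycine triplets had a median of 338 triplets in the fibrillar genes, where it ranged from 216 in *Col24a1* and 217 in *Col27a1* to 344 in *Col3a1*. Among the 6 type IV genes the longest run was 39 to 66 triplets, and each gene had 22 to 27 separate runs of 5 triplets or more. The 3 type IX chains and *Col22a1* had a longest run of 113 triplets, and *Col12a1*, *Col14a1* and *Col20a1* one of 32. These are counts over the transcript with the longest coding sequence of each gene in GENCODE M21.

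**Figure D1:**
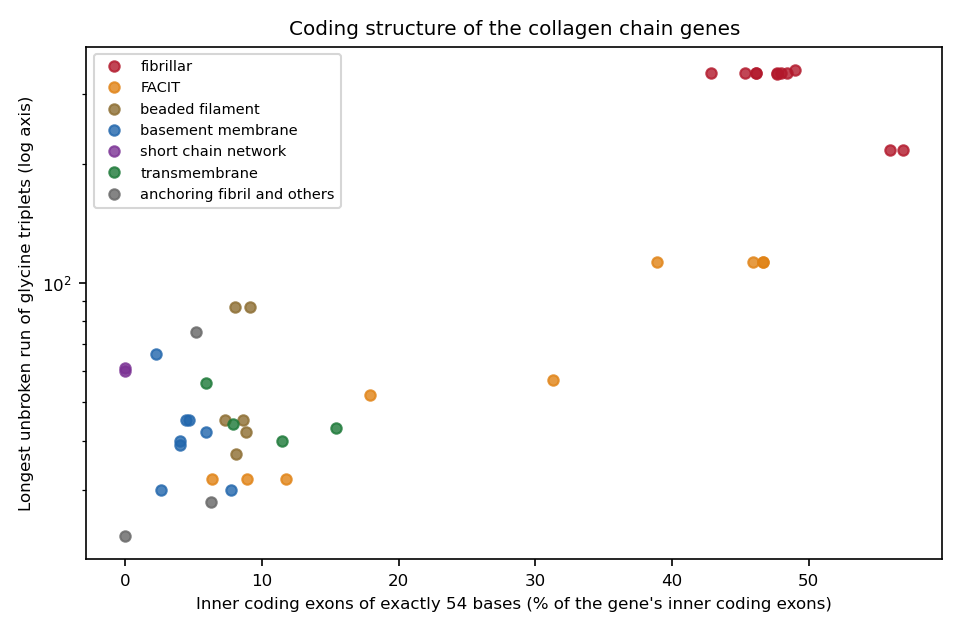
Longest unbroken run of glycine triplets (log axis) against the percent of inner coding exons that are exactly 54 bases long, 1 point per gene, coloured by class. The 11 fibrillar genes lie alone at the top right, with 42.9% to 56.9% of exons of 54 bases and runs of 216 to 344 triplets, and the 8 basement membrane genes lie at 2.22% to 7.69% with runs of 30 to 66.

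Collagen transcripts made up between 0.703% and 1.42% of all counts in a library. In the wildtype libraries 1 to 3 the share was 1.07%, 0.878% and 0.703%, and in the mutant libraries 1 to 3 it was 1.28%, 1.42% and 1.06%. The groups overlapped, as mutant replicate 3 lay just below wildtype replicate 1. Fibrillar chains took the most of it, with 0.702%, 0.528% and 0.358% of all counts in the wildtype libraries and 0.849%, 0.973% and 0.658% in the mutant libraries. Basement membrane chains held a narrower range, 0.244%, 0.252% and 0.269% in the wildtype libraries and 0.270%, 0.271% and 0.264% in the mutant libraries. The ratio of fibrillar to type IV counts was therefore 4.01, 2.81 and 1.68 in the wildtype libraries and 4.68, 5.56 and 3.44 in the mutant libraries, a range in which the groups overlapped again. These are shares of bulk RNA, in which fewer cells of a type and less RNA per cell cannot be told apart.

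Per kilobase of transcript, which allows genes to be compared, *Col3a1* was highest at a mean of 524 CPM per kilobase over the 6 libraries, followed by *Col1a2* at 212, *Col1a1* at 170, *Col4a1* at 144, *Col5a2* at 133 and *Col18a1* at 124. The length used was that of the transcript with the longest coding sequence. With all exon bases of the gene as the length, *Col3a1* stayed first at 297 CPM per kilobase, whereas *Col1a1* came next at 153 and *Col1a2* ranked sixth at 91.4, so the order of the type I chains depends on the length and is not settled here. Of the 43 genes, 17 had a mean of at least 100 CPM in a group, and 11 stayed under 5 CPM in both. *Col19a1* was counted 1, 0 and 1 times in the wildtype libraries and 3 times in each mutant library, at or under the floor of 3 counts everywhere, so no fold change is given for it.

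**Figure D2:**
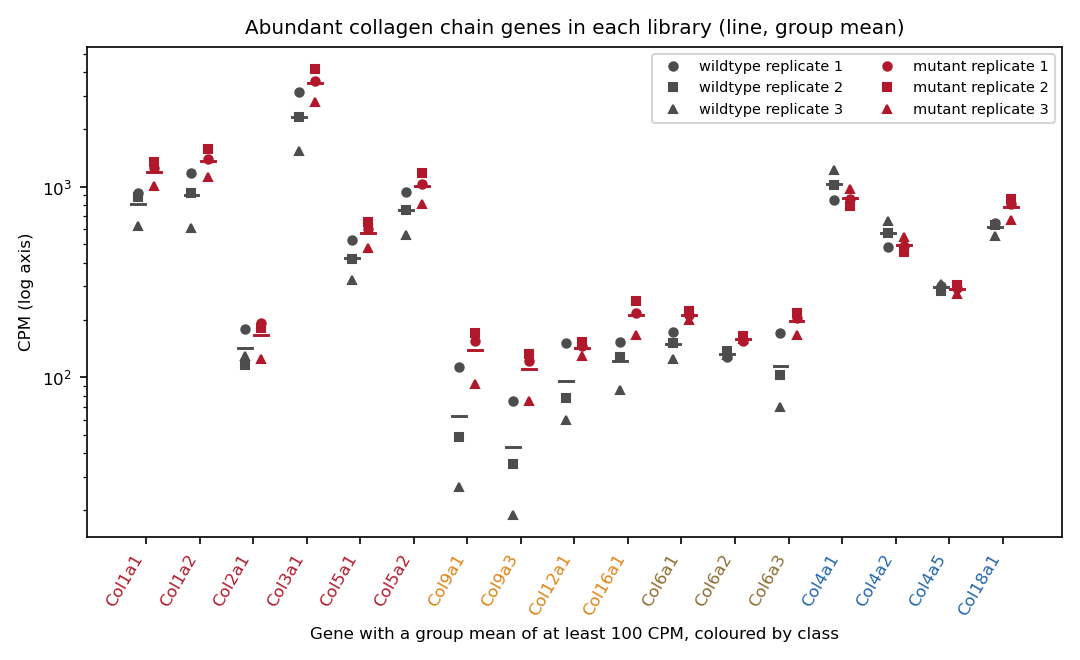
CPM (log axis) of the 17 collagen genes with a group mean of at least 100 CPM in each of the 6 libraries, with gene names coloured by class, grey for wildtype, red for mutant and a line at each group mean. Wildtype replicate 3 is the lowest library in most fibrillar and FACIT genes, and in *Col4a1* and *Col4a2* it is the highest.

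No collagen gene was called between mutant and wildtype by edgeR's quasi-likelihood test at an adjusted p of at most 0.05, with 0 called higher (all genes tested: 0.0178%) and 0 called lower (all genes tested: 0.00355%). The smallest adjusted p in that test was 0.16, for *Col11a2*. At an unadjusted p under 0.05, 20 of the 43 (46.5%) were higher in the mutant libraries, where 8.23% of all genes tested were, and 1 was lower, where 7.83% of all genes tested were. The log2 fold change was above 0 for 31 of the 43 (72.1%), against 51.2% of all genes tested. The median log2 fold change was 0.44 over the 43 and 0.43 without *Col19a1*, beside 0.011 over all genes tested and −0.030 over the 16655 genes averaging 1 CPM or more. The groups did not overlap, with every mutant library above every wildtype library, for 11 of the 43 (25.6%), where 10.7% of all genes tested showed this. These 11 were *Col1a1*, *Col6a1*, *Col6a2*, *Col6a6*, *Col9a2*, *Col9a3*, *Col11a2*, *Col15a1*, *Col16a1*, *Col18a1* and *Col19a1*. Without *Col19a1*, which is at or under 3 counts in every library, it was 10 of 42. Every mutant library lay below every wildtype library for 1 gene, *Col17a1* (all genes tested: 8.94%). For each of these genes the exact permutation test gave the smallest two-sided p that 3 libraries against 3 allow, 0.1.

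DESeq2's Wald test at the same adjusted p called 7 members higher (1.46% of all genes tested) and 0 lower (1.18%), namely *Col1a1*, *Col6a1*, *Col6a6*, *Col9a2*, *Col11a2*, *Col15a1* and *Col16a1*. The count also turned on 1 library. Without wildtype replicate 1, edgeR called 17 members higher (4.15% of all genes tested) and 0 lower (5.3%), among them all 7 that DESeq2 called, and without any other single library it called 0. Members higher at an unadjusted p under 0.05 in edgeR's test numbered 11 to 22 with each library left out (all genes: 1247 of 27485 to 3456 of 27450). With each library corrected for gene GC content and length, 13 were higher (all genes: 2053 of 28157) and 3 lower (2462 of 28157) at that p. The median log2 fold change of the 43 was then 0.29. The labels do not say whether the libraries came from separate litters, and the p-values measure the spread between pools of 3 OFTs.

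**Figure D3:**
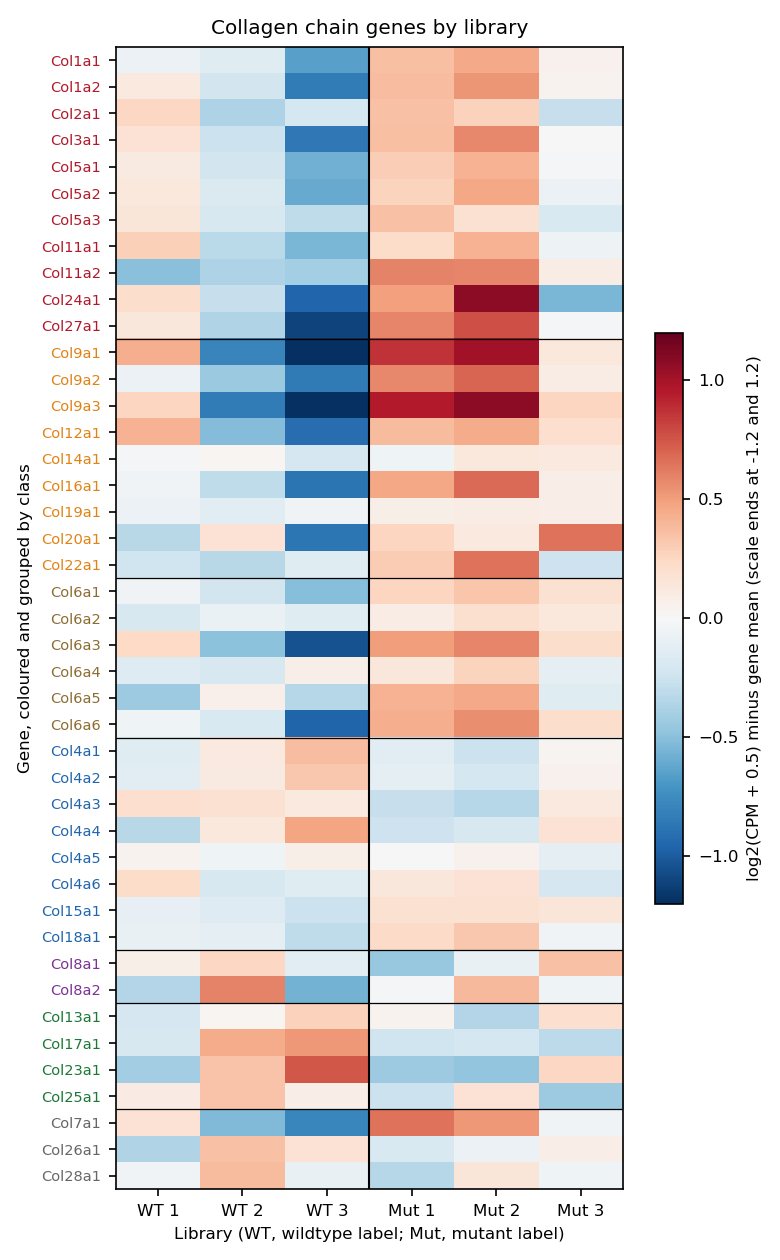
Log2(CPM + 0.5) of each of the 43 collagen genes minus its mean over the 6 libraries, in columns for wildtype replicates 1 to 3 and mutant replicates 1 to 3, with genes grouped and coloured by class. Wildtype replicate 3 is lowest in 23 genes, 9 of them fibrillar, and mutant replicate 2 is highest in 23.

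The spread within groups was wider for these genes than for most. The median SD of log2(CPM + 0.5) was 0.322 among the wildtype libraries and 0.247 among the mutant libraries, beside 0.163 and 0.126 over all genes tested. Wildtype replicate 3 was the lowest of the 6 libraries in 23 of the 43 genes and in 9 of the 11 fibrillar genes, and mutant replicate 2 was the highest in 23. The 3 genes with the widest spread within groups were *Col9a1*, *Col9a3* and *Col24a1*, with SDs of 0.813, 0.76 and 0.712.

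**Figure D4:**
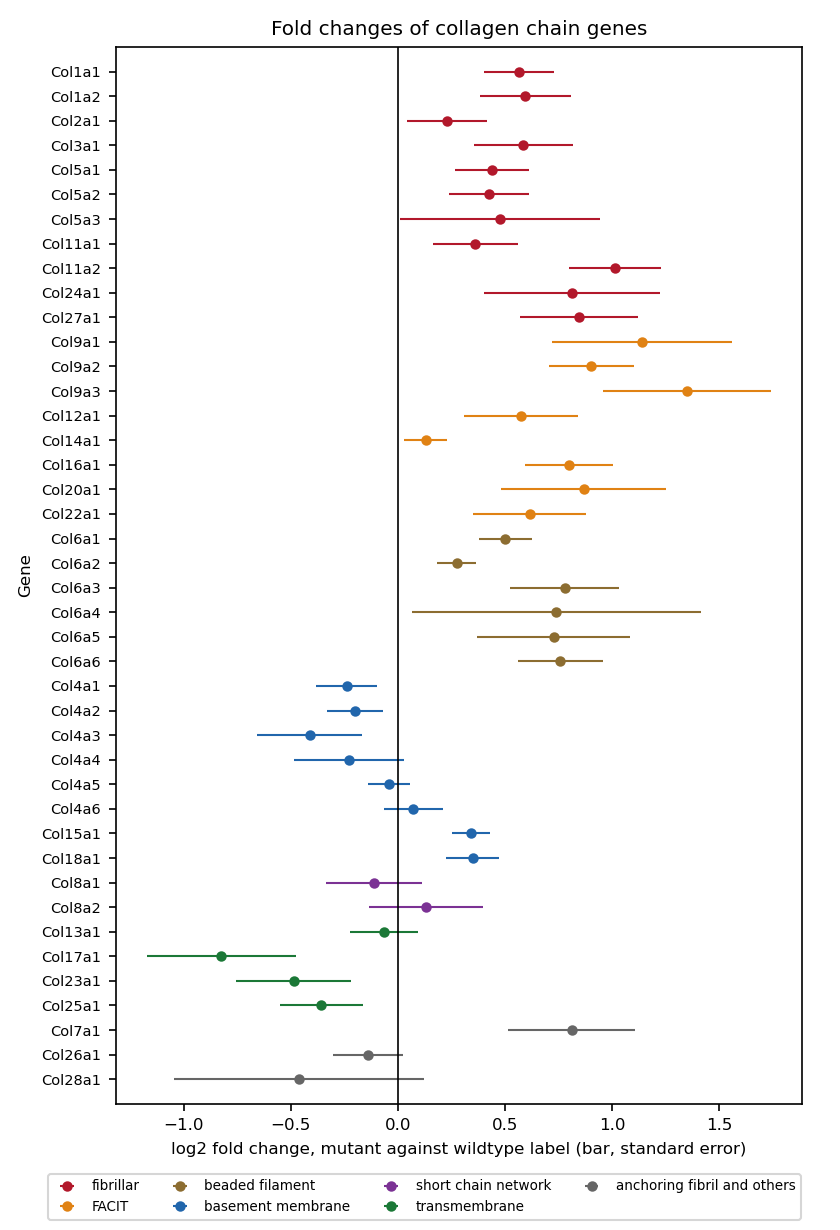
Log2 fold change of mutant against wildtype for 42 collagen genes, coloured by class, with bars of 1 standard error from edgeR and *Col19a1* left out. All 11 fibrillar, 8 FACIT and 6 beaded filament genes lie right of 0, 5 of the 6 type IV genes and all 4 transmembrane genes lie left of it, where scaling by library size alone moved *Col4a5* and *Col13a1* to its right and a GC and length correction moved *Col2a1* to its left, and no gene passed the adjusted threshold.

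Marker levels of cell types were set beside these values in the same libraries. The summed level of 10 mesenchymal markers was 4592, 2738 and 2315 CPM in wildtype replicates 1 to 3 and 4603, 4798 and 4268 CPM in mutant replicates 1 to 3, so wildtype replicate 3 was the lowest library, as it was in 9 of the 11 fibrillar genes. Of these 10 markers 9 had log2 fold changes above 0. The 10 cartilage markers tested of 11 summed to 179, 117 and 90.2 CPM in the wildtype libraries and to 207, 211 and 180 CPM in the mutant libraries, with 8 of 10 above 0. The 10 myocardial markers summed to 28480, 30583 and 41421 CPM in the wildtype libraries and to 22869, 19035 and 27932 CPM in the mutant libraries, with 10 of 10 below 0, and they were highest in wildtype replicate 3 and lowest in mutant replicate 2, the order of extremes also seen in *Col4a1* and *Col4a2*. Blood markers summed to 4211, 10180 and 8723 CPM in the wildtype libraries and to 5097 to 5377 CPM in the mutant libraries. The markers of vascular smooth muscle, endothelium, epicardium, and neural crest and glia had median log2 fold changes of 0.12, −0.058, −0.20 and 0.57. In that order, 5 of 8, 2 of 8, 2 of 8 and 6 of 6 of these markers were above 0. The smooth muscle markers ran from −0.47 to 1.04 and the endothelial ones from −0.55 to 0.40. The epicardial markers ran from −0.38 to 0.14, and those of neural crest and glia from 0.27 to 0.85. Of the neural crest and glia list 6 of 7 markers were tested, without *Foxd3*, which did not pass the count filter. Each marker tested in these lists exceeded 3 counts in 1 library or more. The part of these cell types in the collagen values was not tested.

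**Figure D5:**
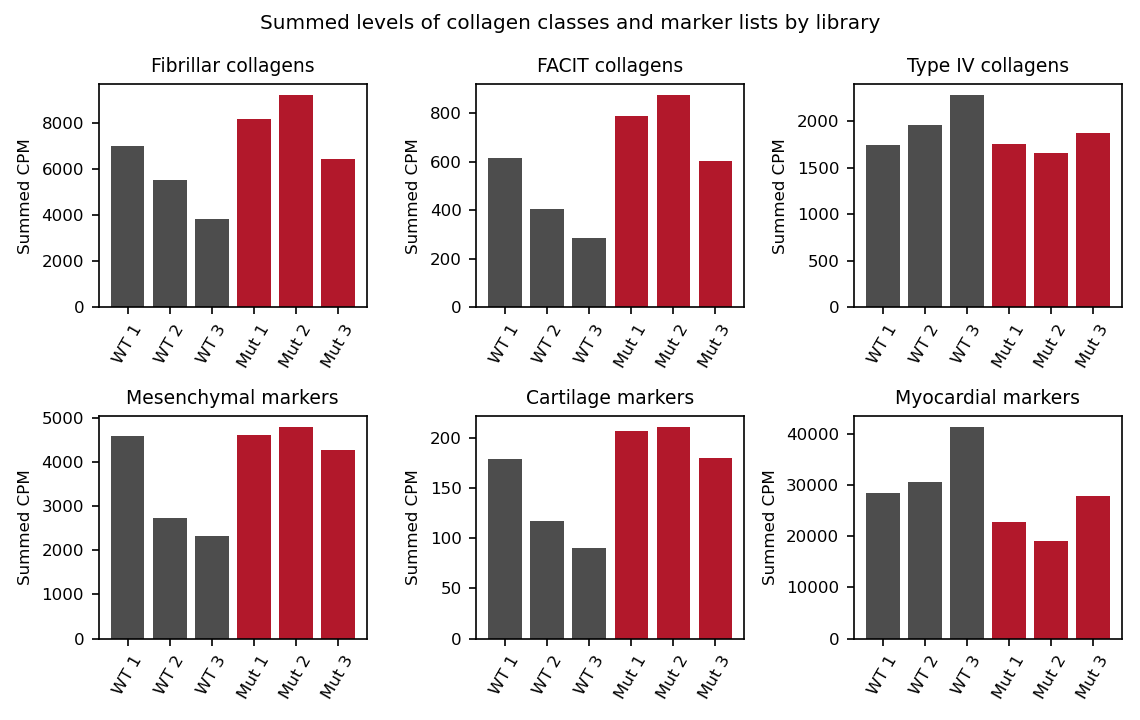
Summed CPM in each of the 6 libraries (grey, wildtype; red, mutant) for fibrillar, FACIT and type IV collagens in the upper row and mesenchymal, cartilage and myocardial markers in the lower row. Fibrillar and FACIT sums are lowest in wildtype replicate 3, as are the mesenchymal and cartilage sums, and the type IV and myocardial sums are highest there.

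Among the fibrillar chains all 11 had log2 fold changes above 0, from 0.23 to 1.01 with a median of 0.57, and *Col2a1* alone turned below 0 under a GC and length correction. Of these, 7 had an unadjusted p under 0.05 (all genes tested: 8.23% higher) and 0 were called. Every mutant library lay above every wildtype library for 2 of the 11 (all genes tested: 10.7%). The chains of type I collagen, the main fibril of bone, skin and artery wall, were among the most abundant. *Col1a1* was measured at 930.4, 882 and 622 CPM in wildtype replicates 1 to 3 and at 1251, 1341 and 1009.8 CPM in mutant replicates 1 to 3. All mutant values lay above all wildtype values, with a log2 fold change of 0.57 (SE 0.16) and an adjusted p of 0.196 in edgeR's test. *Col1a2*, its partner, stood at 1176, 931 and 606 CPM in the wildtype libraries and 1406, 1573 and 1122 CPM in the mutant libraries, where wildtype replicate 1 reached above mutant replicate 3 (log2 fold change 0.60, SE 0.21). *Col3a1*, the type III chain of stretchable tissue such as vessels and valves, ranged from 3139.8, 2324 and 1532 CPM in the wildtype libraries to 3575, 4136 and 2788 CPM in the mutant libraries. Its groups also overlapped through wildtype replicate 1 (log2 fold change 0.59, SE 0.23).

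Type V chains nucleate type I fibrils and limit their width. *Col5a1* gave 525, 419 and 325 CPM in the wildtype libraries and 597, 650.1 and 477 CPM in the mutant libraries, and *Col5a2* gave 934, 758 and 561 CPM and 1032, 1178 and 815 CPM. Their log2 fold changes were 0.44 (SE 0.17) and 0.42 (SE 0.19), and in both genes wildtype replicate 1 lay above mutant replicate 3. *Col5a3* stayed under 1 CPM in all libraries. The type XI chains do the same work in cartilage. *Col11a2* was low, with 1.96, 2.19 and 2.13 CPM in the wildtype libraries and 4.75, 4.72 and 3.21 CPM in the mutant libraries, and its groups were well apart for their level (log2 fold change 1.01, SE 0.21). Leaving out any single library kept that log2 fold change between 0.92 and 1.18. *Col11a1* was higher in level and overlapped, with a mean of 41.5 ± 13.2 (SD, n = 3) CPM in the wildtype and 53.3 ± 8.79 (SD, n = 3) CPM in the mutant libraries.

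*Col2a1*, the main chain of cartilage fibrils, was the fibrillar gene with the smallest fold change. It had 179, 116 and 129.8 CPM in the wildtype libraries and 192, 182 and 124 CPM in the mutant libraries, with mutant replicate 3 between wildtype replicates 2 and 3, and its log2 fold change of 0.23 (SE 0.19) turned to −0.039 when each library was corrected for gene GC content and length. The 2 fibrillar chains with the shortest longest run of glycine triplets were *Col27a1* and *Col24a1*, each with 3 separate runs of 5 triplets or more. *Col27a1* was measured at 58.3, 41.1 and 24.2 CPM in the wildtype libraries and 79.6, 91.1 and 52.1 CPM in the mutant libraries, overlapping only through wildtype replicate 1 (log2 fold change 0.85, SE 0.28). For *Col24a1* the values were 5.15, 3.54 and 2.03 CPM and 6.4, 9.77 and 2.84 CPM, with mutant replicate 2 far above mutant replicate 3, so that its log2 fold change of 0.81 had an SE of 0.41. The class median of 0.57 became 0.36 with the GC and length correction and also 0.36 without wildtype replicate 3, whereas leaving out wildtype replicate 1 gave 0.83 and leaving out mutant replicate 3 gave 0.72, and it remained above 0 in these and all other settings run.

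The FACIT chains bind along fibrils. Leaving aside *Col19a1*, all 8 had log2 fold changes above 0, from 0.13 to 1.35 with a median of 0.83. Of these, 6 had an unadjusted p under 0.05 (all genes tested: 8.23% higher), with 0 called. Every mutant library lay above every wildtype library for 3 of the 8 (all genes tested: 10.7%). The 3 chains of type IX collagen, known from cartilage and the vitreous, held the largest fold changes of the 8. *Col9a3* rested at 75.1, 35 and 18.9 CPM in the wildtype libraries and 122, 133 and 75.3 CPM in the mutant libraries. Wildtype replicate 1 and mutant replicate 3 were almost equal, and the other wildtype libraries lay far below them (log2 fold change 1.35, SE 0.39). *Col9a1* showed 114, 48.5 and 26.5 CPM and 154, 170.4 and 92.1 CPM, with wildtype replicate 1 above mutant replicate 3 (log2 fold change 1.14, SE 0.42). Leaving out wildtype replicate 1 brought *Col9a1* to a log2 fold change of 1.89 and *Col9a3* to 2.02. *Col9a2* was the steadiest of the 3, at 44.2, 34.1 and 25.7 CPM and 69.5, 75.8 and 49.5 CPM with no overlap, a log2 fold change of 0.90 (SE 0.20) and an adjusted p of 0.18 in edgeR's test.

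*Col16a1*, a FACIT of many connective tissues, was measured at 154, 128 and 85.4 CPM in the wildtype libraries and 218, 253 and 167 CPM in the mutant libraries, without overlap (log2 fold change 0.80, SE 0.20, adjusted p = 0.19 in edgeR's test). *Col12a1*, which sits on type I fibrils in dense tissue, had 151, 78.2 and 59.5 CPM and 147, 153 and 129.8 CPM, where wildtype replicate 1 stood with the mutant libraries and the other wildtype libraries were well below (log2 fold change 0.57, SE 0.27). By contrast *Col14a1*, its close relative, lay between 66.2 and 83.3 CPM in all 6 libraries (log2 fold change 0.13, SE 0.10). *Col22a1* was low, at 2.16, 2 and 2.34 CPM in the wildtype and 3.37, 4.43 and 2.15 CPM in the mutant libraries, with mutant replicate 3 among the wildtype values (log2 fold change 0.62). *Col20a1* ranged between 0.493 and 2.36 CPM. An exon of *Col9a3* shares 234 bases, 6.07% of its exon length, with *Tcfl5* on the opposite strand, and whether the counting used the strand is not stated. *Tcfl5* had 11 to 49 counts a library.

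All 6 beaded filament chains of type VI collagen, which links cells to the surrounding matrix, had log2 fold changes above 0, with a median of 0.73. Of these, 4 had an unadjusted p under 0.05 (all genes tested: 8.23% higher) and 0 were called. Every mutant library lay above every wildtype library for 3 of the 6 (all genes tested: 10.7%). *Col6a1* was at 172, 152 and 124 CPM in the wildtype libraries and 212, 222 and 200.4 CPM in the mutant libraries (log2 fold change 0.50, SE 0.12, adjusted p = 0.181 in edgeR's test). *Col6a2*, whose chain joins it in the same trimer, was at 127, 137 and 131 CPM and 154, 165 and 159 CPM, a smaller difference with a narrow spread in both groups (log2 fold change 0.27, SE 0.09). Neither gene overlapped between groups. *Col6a3*, the long chain of the trimer, had 171, 103 and 70.1 CPM and 205, 218 and 168 CPM, and wildtype replicate 1 lay just above mutant replicate 3 (log2 fold change 0.78, SE 0.26). *Col6a6*, which can stand in for that chain, had 53.9, 49.1 and 28.5 CPM and 75.6, 82.7 and 64.6 CPM with no overlap (log2 fold change 0.76, SE 0.20, adjusted p = 0.194 in edgeR's test). Its relatives *Col6a4* and *Col6a5*, which lie beside it on chromosome 9 on the same strand, stayed between 0.0964 and 1.55 CPM.

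In the basement membrane class most values of the type IV genes lay on the other side of 0. Of these 6 genes, 5 had log2 fold changes below 0, or 4 when libraries were scaled by size alone, and the median was −0.21, while 0 had an unadjusted p under 0.05. With the GC and length correction all 6 were below 0, with a median of −0.37. Then 2 had such a p in edgeR's test (all genes lower: 2462 of 28157). Without wildtype replicate 1 it was also 2 (all genes lower: 3758 of 27450), and without mutant replicate 3 it was 1 (2500 of 27500). *Col4a1* and *Col4a2*, which form the network found in nearly all basement membranes, were the abundant ones. *Col4a1* was measured at 853, 1025 and 1224 CPM in wildtype replicates 1 to 3 and at 867, 792 and 969 CPM in mutant replicates 1 to 3. *Col4a2* was measured at 481, 569.6 and 661 CPM and 487, 457 and 547 CPM. In both genes wildtype replicate 3 was the highest library and mutant replicate 2 the lowest, and the groups overlapped through wildtype replicate 1. Their log2 fold changes were −0.24 (SE 0.14, adjusted p = 0.427) and −0.20 (SE 0.13, adjusted p = 0.48) in edgeR's test. Wildtype replicate 3 thus held the most of these chains and the least of most fibrillar chains.

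These genes are divergent neighbours on chromosome 8, and their exons overlap by 22 bases on opposite strands. The windows around both starts, 250 bases before and 50 after, are shown as an example of a divergent pair. They come from RefSeq on GRCm38.p6, 5′ to 3′ on the strand of each gene, with the CCAAT box (CCAAT or its reverse complement ATTGG) in capitals.
Col4a1, chr8:11312777-11313076, minus strand: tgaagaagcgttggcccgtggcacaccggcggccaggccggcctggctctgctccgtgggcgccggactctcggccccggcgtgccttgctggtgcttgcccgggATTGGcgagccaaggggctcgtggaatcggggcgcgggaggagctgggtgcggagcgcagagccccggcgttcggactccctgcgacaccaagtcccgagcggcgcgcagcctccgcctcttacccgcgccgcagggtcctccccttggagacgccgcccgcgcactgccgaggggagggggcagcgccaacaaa
Col4a2, chr8:11312555-11312854, plus strand: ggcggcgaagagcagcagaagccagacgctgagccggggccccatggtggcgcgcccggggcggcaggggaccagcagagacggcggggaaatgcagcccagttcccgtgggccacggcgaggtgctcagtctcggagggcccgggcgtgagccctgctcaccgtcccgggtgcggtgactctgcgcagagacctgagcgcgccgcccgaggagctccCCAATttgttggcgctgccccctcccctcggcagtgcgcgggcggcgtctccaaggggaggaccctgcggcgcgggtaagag

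Both windows hold 1 CCAAT box and a GC box (GGGCGG or CCGCCC), have no TATA box (TATAAA or its reverse complement), and are 74% and 73.7% G and C. Of all 32851 windows in the table, 37.4% hold a CCAAT box, 35.7% a GC box and 13.6% a TATA box. Per kilobase of exon the ratio of *Col4a1* to *Col4a2* lay between 1.54 and 1.64 in the 6 libraries. A steady ratio was not particular to neighbours, as that of *Col5a1* to *Col5a2*, on chromosomes 2 and 1, lay between 0.624 and 0.661.

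The other type IV pairs are also arranged head to head. *Col4a3* and *Col4a4*, chains of the kidney and inner ear network whose gene starts are 71 bases apart, were low. *Col4a3* was counted at 2.23, 2.19 and 2.06 CPM in the wildtype and 1.45, 1.36 and 2.07 CPM in the mutant libraries (log2 fold change −0.41, SE 0.24), and *Col4a4* at 2.47, 3.59 and 4.68 CPM and 2.65, 2.77 and 3.71 CPM (log2 fold change −0.23, SE 0.26). Both overlapped between groups, and the ratio of *Col4a3* to *Col4a4* per kilobase of exon ran from 0.469 to 0.958. Exons of *Col4a3* share 5.65% of their length with *C430014B12Rik* on the opposite strand, a gene with 1 to 21 counts a library. *Col4a5* and *Col4a6*, 1308 bases apart on the X chromosome, varied little. *Col4a5* gave 302, 283 and 309 CPM and 293, 304 and 272 CPM, and *Col4a6* gave 107, 80.3 and 82.9 CPM and 101, 104 and 79.9 CPM, and the groups overlapped in both genes (log2 fold changes −0.041, SE 0.097, and 0.071, SE 0.14). Scaling by library size alone turned *Col4a5* to 0.064.

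*Col15a1* and *Col18a1* anchor basement membranes to the matrix below them, and the tail of the *Col18a1* protein can be cut off as endostatin. Unlike the type IV chains they were higher in every mutant library than in any wildtype library. *Col18a1* was at 647, 631 and 555 CPM in the wildtype libraries and 808, 862 and 666 CPM in the mutant libraries (log2 fold change 0.35, SE 0.12). *Col15a1* was at 41.4, 39.7 and 37 CPM and 50.5, 50.3 and 49 CPM, with a narrow spread in both groups (log2 fold change 0.34, SE 0.091, adjusted p = 0.194 in edgeR's test). With the GC and length correction the log2 fold changes of *Col18a1* and *Col15a1* were smaller, 0.12 and 0.18. The median of the 8 basement membrane genes was −0.12. It ranged from −0.17 without wildtype replicate 1 to −0.0034 without wildtype replicate 3, and it was −0.23 with the GC and length correction.

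The transmembrane collagens, whose chains span the cell membrane, had 4 of 4 log2 fold changes below 0 (*Col13a1* turned to 0.043 when libraries were scaled by size alone). Of these, 1 had an unadjusted p under 0.05 (all genes tested: 7.83% lower). *Col17a1*, an epithelial hemidesmosome protein, was at 0.765, 1.47 and 1.57 CPM in the wildtype libraries and 0.725, 0.747 and 0.663 CPM in the mutant libraries, all lower than wildtype (log2 fold change −0.82, SE 0.35, adjusted p = 0.291 in edgeR's test). These values rest on 25 to 61 reads a library. The 7 epithelial markers tested of 8 summed to 32.3, 44.1 and 39.1 CPM in the wildtype libraries and to 33, 32.5 and 28 CPM in the mutant libraries, and their part in the *Col17a1* values was not tested. *Col23a1* had a mean of 53.6 ± 20.3 (SD, n = 3) CPM in the wildtype and 38.2 ± 11.6 (SD, n = 3) CPM in the mutant libraries and overlapped, with a log2 fold change of −0.49 (SE 0.27). *Col13a1* and *Col25a1* had log2 fold changes of −0.064 and −0.36. *Col8a1* and *Col8a2*, whose short chains form a hexagonal network known from the membrane under the corneal endothelium, had log2 fold changes of −0.11 and 0.13, within 1 SE of 0. Of the last 3 genes, *Col7a1*, the anchoring fibril chain that ties basement membranes to the tissue below, was at 4.23, 2.41 and 1.94 CPM and 6.07, 5.5 and 3.58 CPM, with wildtype replicate 1 above mutant replicate 3 (log2 fold change 0.81, SE 0.30). *Col26a1* and *Col28a1* overlapped, with log2 fold changes of −0.14 and −0.46.

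Pairs of chains were next compared within each library, as a ratio per kilobase of exon. The pairs were chains of one collagen type and, as a pair of different types, *Col1a1* with *Col3a1*. None of the 10 pairs computed passed an adjusted p of 0.05 in the exact permutation test (smallest adjusted p 0.75), and 3 libraries against 3 cannot give an unadjusted p under 0.1. The ratio of *Col5a1* to *Col5a2* was also steady, between 0.624 and 0.661 in the 6 libraries, with a difference of 0.018 in log2 ratio between groups. For *Col1a1* to *Col1a2* it lay between 1.5 and 1.94, and with transcript length in place of exon length between 0.714 and 0.925, so which chain is the more abundant depends on the length used. Only for *Col11a1* to *Col11a2* did the groups not overlap. This ratio ran from 6.12 to 15.5 and was lower in every mutant library, with a difference of −0.60 in log2 ratio (permutation p = 0.1, adjusted p = 0.75). *Col9a1* to *Col9a2* varied from 0.63 to 1.57 and *Col4a5* to *Col4a6* from 3.34 to 4.42, with overlapping groups.

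Genes that make, process and sense collagen were taken from a list of 44. None was called by edgeR's test (0 at an adjusted p of at most 0.05), 9 had an unadjusted p under 0.05 and a higher level in the mutant libraries (all genes tested: 8.23%), 0 had such a p and a lower level (all genes tested: 7.83%), and 38 had log2 fold changes above 0 (all genes tested: 51.2%), with a median of 0.18. DESeq2's Wald test called 4 of them higher (*Bmp1*, *Ddr2*, *Itga10* and *P3h3*), where it called 1.46% of all genes tested, and without wildtype replicate 1 edgeR called 12 higher (4.15% of all genes tested). Every mutant library lay above every wildtype library for 7 of the 44 (all genes tested: 10.7%). The reverse held for 2, *Crtap* and *Tll2* (all genes tested: 8.94%), and *Tll2* had only 1 to 5 counts a library. Among the enzymes that hydroxylate and fold chains, 19 of 20 were above 0 and the median was 0.16. *Plod1*, a lysyl hydroxylase, was at 97.6, 82 and 78 CPM in the wildtype and 111, 116 and 102 CPM in the mutant libraries, with no overlap (log2 fold change 0.35). *P3h3*, of the prolyl hydroxylase family, and *P4ha2*, a subunit of another prolyl hydroxylase, had log2 fold changes of 0.59 and 0.44, and *Plod3* one of 0.19.

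Of the genes for propeptide cleavage and crosslinking, 11 of 14 were above 0 with a median of 0.17. *Bmp1*, the protease that trims the C-terminal propeptides of fibrillar chains, was at 126, 110.1 and 91.9 CPM and 181, 183 and 135 CPM, with no overlap (log2 fold change 0.61, SE 0.15, adjusted p = 0.181 in edgeR's test). *Adamts2*, which trims the other end, was at 74.7, 39.9 and 23.8 CPM and 91.5, 118 and 51.2 CPM, overlapping through wildtype replicate 1 and mutant replicate 3 (log2 fold change 0.91). Of the receptors, 8 of 10 were above 0 with a median of 0.20. *Itga10*, an integrin subunit for collagen in cartilage, was at 3.22, 1.93 and 1.88 CPM and 4.95, 4.16 and 5.01 CPM (log2 fold change 1.00, adjusted p = 0.181 in edgeR's test). The kinase *Ddr2*, which binds fibrillar collagen, the uptake receptor *Mrc2* and the integrin subunit *Itga11* had log2 fold changes of 0.75, 0.68 and 0.51.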

How the data were processed

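RNA-Seq counts of 3 libraries labelled mutant and 3 labelled wildtype were analysed. The authors aligned stranded, ribosomal RNA-depleted reads to mm10 (TopHat2 2.1.0 per the submitters' processing notes), counted reads on exons with GenomicAlignments, and deposited these raw counts per gene. The annotation release and the use of strand in counting are not given in the sources used here, so values of overlapping genes are uncertain. For wildtype replicates 2 and 3 the library number in the title is that of the other's description.

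Only genes with more than 5 reads in total were tested, 28157 of 28777. Counts were normalized by TMM and tested in R 4.3.3 with edgeR 4.0.16 (quasi-likelihood test, Benjamini-Hochberg adjustment over all genes tested, adjusted p of at most 0.05). CPM are TMM-scaled. Single genes and chain ratios were also compared by a two-sided exact permutation test of log2(CPM + 0.5) or log2 ratio. DESeq2 1.42.0, other scalings and filters, a GC content and length correction, a replicate block and each library left out in turn were alternatives, and transcript length in place of exon length was added after seeing the data. Code was tested on simulated counts. Positions, lengths and exons came from GENCODE M21 (GRCm38), and start windows from RefSeq (GRCm38.p6), which matched 34 of the 43 genes.

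The members, classes and lists were chosen with earlier results of these data known. Values in every library are given for members of at least 100 CPM in a group, the 20 with the smallest unadjusted p, the type IV pairs and the 3 with the widest spread. From the list of 44 biosynthesis and receptor genes, the 10 with the smallest p are named, and the 2 that were lower in every mutant library. Other members are given by range, mean or fold change.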

Additional observations from a re-analysis of the deposited data

How the results depend on the processing

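Depth was at least 34729103 counts a library, and 11 collagen genes had a mean under 5 CPM in both groups. The edgeR count of 0 members called higher became 7 with DESeq2's Wald test and lay between 0 and 17 when each library was left out, 17 being the count without wildtype replicate 1. The count of 0 called lower stayed 0 in those settings. With a replicate block 17 were higher (3.18% of all genes) and 1 lower (2.42%, *Col23a1*). With the block and a GC and length correction 14 were higher (3.24%) and 3 lower (4.78%, *Col4a1*, *Col4a2* and *Col23a1*). A block on the numbers in the sample descriptions was a setting chosen after seeing the data. It gave 2 members higher (all genes: 62 of 28157) and 0 lower (all genes: 21 of 28157). The block rests only on a shared number: deviations of same-numbered libraries correlated at 0.096, 0.159 and 0.42 over 16655 genes, and not every library correlated best with its own number, so the replicates are not taken as paired. Over all genes the block raised the calls from 6 to 1577. Of the biosynthesis and receptor genes, 4 were called higher with DESeq2 (1.46% of all genes), 10 with the block (3.18%), 10 with the block and correction (3.24%), where 1 was lower (4.78%), and 0 to 12 with a library left out, 12 being without wildtype replicate 1 (4.15%). The basement membrane median of −0.12 was −0.013 with scaling by library size, −0.23 with the GC and length correction, −0.22 with block and correction, and −0.17 to −0.0034 with a library left out. Scaling by library size moved the median of all genes from 0.011 to 0.11, and that of the collagen genes from 0.44 to 0.54. The median of the other classes was 0.45 to 0.64 with a library left out. Signs turned with the correction for *Col2a1* (−0.039, with block −0.026), *Col4a6* (−0.055, with block −0.050) and *Col8a2* (−0.031), and with library size scaling for *Col4a5* (0.064) and *Col13a1* (0.043). With each library left out in turn the sign turned within these ranges: *Col4a4* −0.44 to 0.0072, *Col4a5* −0.077 to 0.0017, *Col4a6* −0.0059 to 0.22, *Col8a1* −0.37 to 0.081, *Col8a2* −0.082 to 0.59, *Col13a1* −0.19 to 0.080, *Col26a1* −0.32 to 0.015, and the log2 ratios of *Col1a1* to *Col1a2* −0.16 to 0.024, *Col4a3* to *Col4a4* −0.48 to 0.033 and *Col1a1* to *Col3a1* −0.19 to 0.041. The stricter filter left out *Col6a4* and *Col19a1*. DESeq2 gave no adjusted p for *Col5a3*, *Col6a4*, *Col19a1* and *Col28a1*. The cause of these changes was not tested.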

Other observations

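Windows from 250 bases before to 50 after a gene start were found in RefSeq (GRCm38.p6) for 34 of the 43 collagen genes, 37 windows in all, and searched on both strands for short motifs. The GC box (GGGCGG or CCGCCC) was in 23 of the 37 windows (62.2%), where 35.7% of the 32851 windows of all genes hold it, and in 6 of 8 fibrillar and 5 of 8 basement membrane windows. The CCAAT box (CCAAT or ATTGG) was in 13 (35.1%, all windows 37.4%), and the TATA box (TATAAA or TTTATA) in 4 (10.8%, all windows 13.6%). The core letters of the RBPJ site, the DNA-binding partner of Notch (TGGGAA or TTCCCA), were in 11 (29.7%, all windows 25.6%). By class these were 0 of 8 fibrillar, 3 of 8 basement membrane and 8 of 21 other windows. The fibrillar genes *Col1a1*, *Col2a1* and *Col5a2* had no window. The core letters of the SOX site (ACAAAG or CTTTGT) were in 4 (10.8%, all windows 18.7%). A match is a description of letters in the window and no evidence of binding, and the windows of neighbouring genes such as *Col4a1* and *Col4a2* overlap.

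Several collagen genes lie side by side in the genome. *Col3a1* and *Col5a2* face each other tail to tail on chromosome 1, 24.6 kb apart, and had log2 fold changes of 0.59 and 0.42. *Col9a1* and *Col19a1* lie tail to tail 9.2 kb apart on the same chromosome, yet *Col9a1* had 26.5 to 170 CPM in the 6 libraries and *Col19a1* at most 3 reads. *Col6a1* and *Col6a2* lie on the same strand of chromosome 10, 85.2 kb apart, with log2 fold changes of 0.50 and 0.27. These are positions and values side by side, with no test of neighbourhood.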
